A study of Mus musculus with 12 samples.

Results

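The transcripts described here were 10 subunit genes of voltage-gated calcium channels, chosen by name and not by their values. Each was taken as the entry of that name in a table of RPKM (reads per kilobase of transcript, scaled to the number of mapped reads of the library), and all 10 were found among its 24078 entries. The table came from RNA-sequencing of pancreatic islets of Wfs1tm1Koks mice, a model of Wolfram syndrome. Islets were handpicked after collagenase digestion and kept overnight in high glucose medium, and each animal gave its own library. The 3 genotypes were wild-type (WT), heterozygous for the Wfs1 mutation (Wfs1HZ) and homozygous for it (Wfs1KO). Each held 4 male mice aged 5 to 6 months, all F2 hybrids of a SvEvTac strain and C57BL/6. The part of parent strain differences between the animals in the genotype comparisons was not tested. The mutation replaces most of exon 8 with a LacZ cassette in the germ line, and a truncated fusion protein is still made, so the Wfs1KO mouse is not a complete null. The question was whether islets that lack intact WFS1, a membrane protein of the endoplasmic reticulum, express a different set of calcium channel subunits.

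A voltage-gated calcium channel is built around a pore-forming alpha1 subunit that opens when the membrane depolarizes. In a beta cell, glucose metabolism closes the ATP-sensitive potassium channel, the membrane depolarizes, and calcium that enters through these channels triggers exocytosis of insulin. Cytoplasmic beta subunits and extracellular alpha2delta subunits join the high-voltage-activated pores, raise their number at the membrane and tune their gating. The pores described here were the L-type genes Cacna1c and Cacna1d, the P/Q-type gene Cacna1a, the N-type gene Cacna1b, the R-type gene Cacna1e and the low-voltage-activated T-type gene Cacna1h. The accessory members were Cacnb2 and Cacnb3, which encode beta subunits, and Cacna2d1 and Cacna2d2, which encode alpha2delta subunits.

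The grouping of the pores can be seen in their coding sequence (mm10, from the GENCODE M21 transcripts). The first stretch shown, of 54 bases, encodes the alpha interaction domain, the segment of the loop after the first repeat to which the beta subunit binds, and is shown because it is where the products of the pore genes and of the Cacnb genes meet. Capitals mark the codons of the residues that were held fixed in the search pattern used here.
Cacna1c: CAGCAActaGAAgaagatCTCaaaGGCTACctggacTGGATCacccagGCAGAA
Cacna1d: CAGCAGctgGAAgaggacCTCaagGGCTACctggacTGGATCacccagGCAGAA
Cacna1a: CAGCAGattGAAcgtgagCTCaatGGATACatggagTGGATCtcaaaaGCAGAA
Cacna1b: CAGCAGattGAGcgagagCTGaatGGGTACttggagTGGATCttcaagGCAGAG
Cacna1e: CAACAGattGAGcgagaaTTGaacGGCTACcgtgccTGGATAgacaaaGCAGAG
The stretch of Cacna1c lies in exon 9 at chr6:118734906-118734959 on the minus strand, and that of Cacna1d in exon 9 at chr14:30142600-30142653 on the minus strand. The 2 L-type stretches were identical at 49 of 54 bases (90.7%), whereas Cacna1c and Cacna1a shared 39 of 54 (72.2%). In Cacna1a the stretch begins in exon 8 at chr8:84536125-84536176 on the plus strand, and its last 2 bases open exon 9. None of the 5 coding transcripts of Cacna1h matched the pattern. Over all 21877 protein-coding genes, 6 (0.0274%) matched, the 5 members above and Cacna1f. The pattern misses a gene that differs at any marked residue. Cacna1s, another pore gene, did not match, and whether it holds the domain in another form was not tested.

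The second stretch, of 39 bases, encodes the core of the third pore loop and is shown because it separates the T-type pore from the rest. Capitals mark the codon of the residue that lines the calcium selectivity filter.
Cacna1c: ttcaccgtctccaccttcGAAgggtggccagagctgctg
Cacna1d: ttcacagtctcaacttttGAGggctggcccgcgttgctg
Cacna1a: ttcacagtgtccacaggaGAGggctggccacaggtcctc
Cacna1b: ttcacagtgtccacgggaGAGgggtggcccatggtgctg
Cacna1e: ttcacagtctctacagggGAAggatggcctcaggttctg
Cacna1h: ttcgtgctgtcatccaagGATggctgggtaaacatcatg
The codon is one for glutamate in the first 5 genes and one for aspartate in Cacna1h, where the stretch lies in exon 24 at chr17:25383490-25383528 on the minus strand. Cacna1h shared 48.7% to 53.8% of the bases with the other 5, whereas Cacna1c and Cacna1d shared 30 of 39 (76.9%). The short pattern, searched like the domain above in the translated coding transcripts, matched 11 of 21877 coding genes (0.0503%), among them 3 that encode no channel (Mcf2l, Trmt12 and Wwox).

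In the annotation the member genes lie on 9 chromosomes. The L-type genes are Cacna1c at chr6:118587240-119196418 and Cacna1d at chr14:30039939-30491455. The other pores are Cacna1a at chr8:84388440-84640246, Cacna1b at chr2:24603887-24763152, Cacna1e at chr1:154390731-154884501 and Cacna1h at chr17:25374285-25433783. The accessory genes are Cacnb2 at chr2:14603088-14987908, Cacnb3 at chr15:98630840-98644529, Cacna2d1 at chr5:15934691-16374511 and Cacna2d2 at chr9:107399612-107529343. Cacna2d1 shares its chromosome with Wfs1 (chr5:36966104-36989205), and whether parent strain differences on that chromosome affect its level was not tested.

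The targeted gene followed the labels. Wfs1 was at 28.6 ± 3.8 RPKM (SD, n = 4) in WT, 11.1 ± 5.6 in Wfs1HZ and 2.45 to 6.61 in Wfs1KO islets, and the animals of both mutant genotypes lay below those of WT (Wfs1KO against WT -2.76 on the log2(RPKM + 0.1) scale, SE 0.29, limma adjusted p = 0.0400). The difference stayed between -2.53 and -2.80 in the other scalings and with weights, while its limma adjusted p rose to 0.0648 with median-of-ratios scaling, 0.0571 with quantile normalization and 0.541 with a replicate block. The size of a read step in short RNA genes gave about 2191000 to 9559000 counted reads per library. By this estimate, of which multiples were not tested, Wfs1HZ replicate 2 had the fewest. It also had the most entries above 0 (20954, against 17964 to 20917 in the other 11 libraries). Its median over all entries stood apart at 3.37 RPKM, against 0.75 to 1.73 in the others. The 10 highest entries of a library took 43.1% to 69.2% of its summed RPKM, with the largest shares in Wfs1HZ replicate 4 (69.2%), WT replicate 4 (60.4%) and Wfs1KO replicate 3 (59.1%). Summed RPKM of the 11 acinar marker genes ran from 52765 to 116584 in WT, 8766 to 301126 in Wfs1HZ and 8348 to 271808 in Wfs1KO islets, with the 2 highest sums in Wfs1HZ replicate 4 and Wfs1KO replicate 3. Of the 10 beta cell markers 9 were above 0 in every library, as were all 5 alpha cell markers. Mafa, a transcription factor that defines mature beta cells, was listed at 0 in 10 of the 12 libraries, including every WT library. It reached at most 0.35 RPKM.

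Islets expressed all 10 members, and their levels fell into 2 tiers. Per transcript length, Cacna2d1 had the highest mean over the 12 animals (18.7 RPKM), followed by Cacnb3 (15.9), Cacna1c (13.1), Cacnb2 (10.7), Cacna1d (8.42) and Cacna1a (5.55). A lower tier held Cacna1b (1.64 RPKM), Cacna1h (1.60), Cacna1e (0.679) and Cacna2d2 (0.658). Neighbors in this order were seldom apart in every animal. Cacna2d1 exceeded Cacnb3 in 9 of 12 animals, Cacnb3 exceeded Cacna1c in 9, Cacna1c exceeded Cacnb2 in 8 and Cacnb2 exceeded Cacna1d in 11. The steps from Cacna1d to Cacna1a and from Cacna1a to Cacna1b held in 12 of 12 animals, whereas Cacna1b exceeded Cacna1h in only 6. Because whole islets were sequenced, fewer cells of a type and less RNA per cell cannot be told apart in any of these levels.

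**Figure D1:**
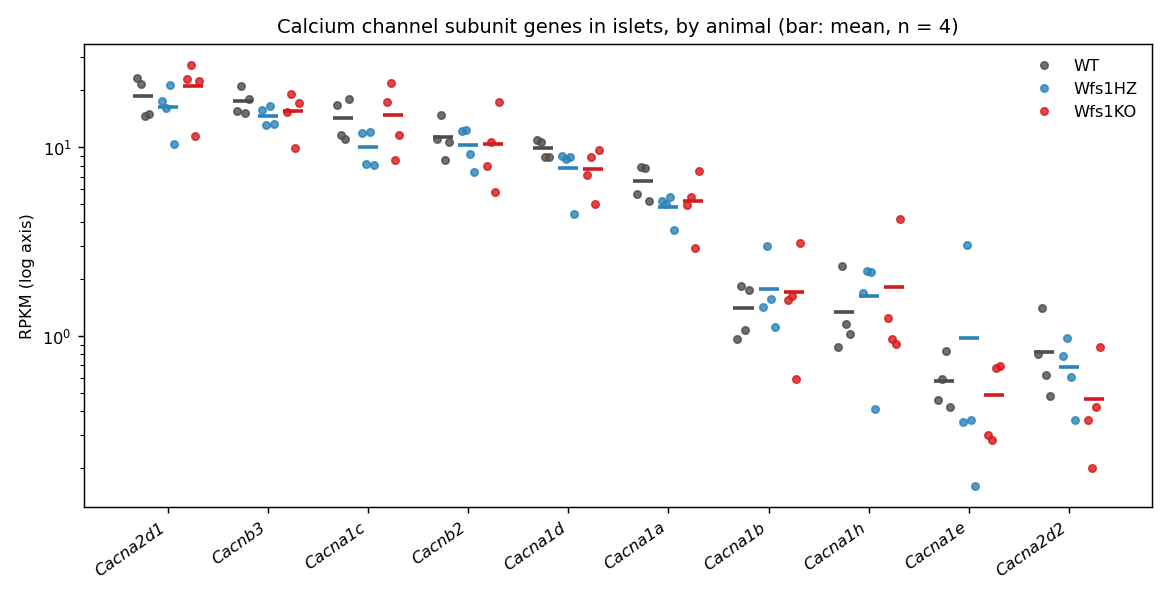
RPKM (log axis) of the 10 calcium channel subunit genes in each animal, ordered by mean level, with 4 WT, 4 Wfs1HZ and 4 Wfs1KO animals as points and the genotype mean as a bar. The genotypes overlap for every gene, and the first 6 genes, with means of 5.55 to 18.7 RPKM, lie above the last 4, with means of 0.658 to 1.64 RPKM.

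Cacna1c and Cacna1d, the L-type pores that carry much of the calcium current of beta cells, were the leading pores in every animal but differed in how steady they were. Cacna1c was at 16.7, 11.6, 11.1 and 17.9 RPKM in WT animals 1 to 4. It was at 11.8, 8.17, 12.1 and 8.07 RPKM in the Wfs1HZ animals and at 17.4, 21.8, 8.55 and 11.6 RPKM in the Wfs1KO animals. The highest of these 12 values and 1 of the 3 under 9 RPKM came from Wfs1KO islets, and the 3 genotypes overlapped. Cacna1c is also the calcium channel of smooth muscle, and the summed RPKM of the 5 smooth muscle markers was 4.19 to 7.31 in WT, 3.09 to 145 in Wfs1HZ and 6.73 to 31.9 in Wfs1KO islets. The highest sum was in Wfs1HZ replicate 2, where Cacna1c was at 8.17 RPKM, and the part of smooth muscle in the Cacna1c level was not tested. Cacna1d was at 10.9, 10.7, 8.86 and 8.93 RPKM in WT, at 9.01, 8.68, 8.84 and 4.44 RPKM in Wfs1HZ and at 7.10, 8.87, 4.99 and 9.68 RPKM in Wfs1KO animals. Its 2 low values were those of Wfs1HZ replicate 4 and Wfs1KO replicate 3, the libraries with the most acinar RNA, and the other 10 lay between 7.10 and 10.9 RPKM. The part of acinar RNA in these low values was not tested.

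Cacna1a encodes the P/Q-type pore, which is best known from nerve terminals and is also found in islet cells. Its level was 5.67, 7.82, 7.80 and 5.19 RPKM in WT animals, 5.17, 4.98, 5.45 and 3.65 in Wfs1HZ animals and 4.97, 5.44, 2.93 and 7.52 in Wfs1KO animals. Of the Wfs1HZ animals 3 lay below every WT animal, but replicate 3 did not, and Wfs1KO replicate 4 (7.52 RPKM) lay above 2 of the WT animals. Cacna1b, the N-type pore, was at 0.97, 1.83, 1.08 and 1.75 RPKM in WT, 1.42, 2.99, 1.58 and 1.12 in Wfs1HZ and 1.55, 1.62, 0.59 and 3.12 in Wfs1KO animals. Its highest values were in Wfs1KO replicate 4 and Wfs1HZ replicate 2, and the lowest was in Wfs1KO replicate 3.

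Cacna1e and Cacna1h were low, and in each a single animal set the upper end. Cacna1e, the R-type pore, was at 0.46, 0.59, 0.83 and 0.42 RPKM in WT, 0.35, 3.03, 0.36 and 0.16 in Wfs1HZ and 0.30, 0.28, 0.68 and 0.69 in Wfs1KO animals. Wfs1HZ replicate 2 alone exceeded 1 RPKM. In that library the summed RPKM of the 6 neuron and glia markers, of which 4 were above 0 in every library, was also the highest, at 17.1 against 2.78 to 8.65 in the other 11. The sums were 2.78 to 5.58 in WT, 2.82 to 17.1 in Wfs1HZ and 3.27 to 8.21 in Wfs1KO islets, and the same library had the highest sums of the 6 fibroblast markers (356 against 11.2 to 132) and the 5 smooth muscle markers (145 against 3.09 to 31.9). The part of any of these in the Cacna1e value was not tested. Cacna1h, the T-type pore that opens at small depolarizations, was at 0.87, 2.34, 1.16 and 1.02 RPKM in WT, 1.69, 2.20, 2.19 and 0.41 in Wfs1HZ and 1.25, 0.96, 0.91 and 4.19 in Wfs1KO animals. In the deposited values the animal with the highest Cacna1h in each genotype had the highest sum of the 5 alpha cell markers. These sums were 182292 RPKM in WT replicate 2, 155316 in Wfs1HZ replicate 2 and 217197 in Wfs1KO replicate 4. Among Wfs1HZ animals this rested on 2.20 against 2.19 RPKM. After median-of-ratios scaling replicate 3 was the highest there (2.23 against 1.59 in replicate 2). Gcg made up nearly all of the alpha cell sum, with a mean of 106120 of 106154 RPKM in WT. The same animals had the lowest beta cell marker sum of their genotype (32086, 12565 and 22394 RPKM). Their acinar sums were also the lowest (52765, 8766 and 8348 RPKM). The alpha cell sums ranged from 59465 to 182292 in WT, 57544 to 155316 in Wfs1HZ and 50094 to 217197 in Wfs1KO islets. The part of any of these in the Cacna1h level was not tested.

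The beta subunit genes were expressed well above the individual minor pores. Cacnb3 was at 15.6, 21.2, 15.2 and 17.9 RPKM in WT, 15.8, 13.1, 16.6 and 13.2 in Wfs1HZ and 15.5, 19.2, 9.97 and 17.2 in Wfs1KO animals. Its pooled SD within genotypes was 0.29 on the log2(RPKM + 0.1) scale, the lowest of the members in the deposited values, and 11.9% of 4638 transcripts of a like level had a smaller one. After median-of-ratios scaling it was 0.33, above those of Cacna1d (0.19) and Cacna1a (0.29). Cacnb2 was at 11.1, 14.9, 8.51 and 10.7 RPKM in WT, 12.2, 12.3, 9.20 and 7.43 in Wfs1HZ and 7.92, 10.7, 5.79 and 17.4 in Wfs1KO animals. The Wfs1KO animals thus held both the lowest and the highest Cacnb2 level, in replicates 3 and 4, and all genotypes overlapped for both genes.

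The alpha2delta genes were far apart. Cacna2d1, the subunit to which gabapentin-type drugs bind, was at 23.3, 21.5, 14.6 and 15.1 RPKM in WT, 17.7, 16.1, 21.3 and 10.4 in Wfs1HZ and 23.1, 27.3, 11.4 and 22.4 in Wfs1KO animals. Its 2 lowest values were again those of Wfs1HZ replicate 4 and Wfs1KO replicate 3. Cacna2d2 was at 0.80, 1.41, 0.62 and 0.48 RPKM in WT, 0.78, 0.98, 0.61 and 0.36 in Wfs1HZ and 0.36, 0.20, 0.42 and 0.87 in Wfs1KO animals. Of the Wfs1KO animals 3 lay below every WT animal, and replicate 4 lay above 3 of the WT animals. At these levels the value of Cacna2d2 rests on about 9.75 to 99.9 reads per library, against 379 to 3527 for Cacna1c. These numbers hold if the annotated exon length was the one used and the estimated read number of each library is right. Across the 10 members, Wfs1HZ replicate 4 held the lowest value of 5 and Wfs1KO replicate 3 that of 4.

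Loss of Wfs1 was compared first as Wfs1KO against WT. None of the 10 members passed FDR < 0.05 or FDR < 0.2 in limma, and none had an unadjusted p under 0.05 or animals that did not overlap. Over all 21701 transcripts tested, 0.0138% passed FDR < 0.05, 0.0461% passed FDR < 0.2, 5.64% had an unadjusted p under 0.05 and 2.74% had animals that did not overlap. In Wfs1KO islets 7 members had a lower and 3 a higher mean log2(RPKM + 0.1), with a median log2 fold change of -0.20 against 0.07 over all transcripts tested. Without Wfs1KO replicate 3 the split was 5 and 5 and the members' median 0.02. Among the pores, Cacna1d differed by -0.40 on the log2(RPKM + 0.1) scale (SE 0.23, 95% interval -0.92 to 0.13, limma adjusted p = 0.879), which had the lowest unadjusted p of the members (0.123), and Cacna1a by -0.39 (SE 0.30, interval -1.08 to 0.30). Cacna1c differed by -0.01 (SE 0.31, interval -0.71 to 0.69). The accessory genes differed by -0.20 for Cacnb2 (interval -0.95 to 0.55), -0.20 for Cacnb3 (-0.72 to 0.31), 0.14 for Cacna2d1 (-0.52 to 0.79) and -0.76 for Cacna2d2 (-1.91 to 0.40). The 3 minor pores had larger errors, with differences of 0.12 (SE 0.50) for Cacna1b, -0.25 (SE 0.45) for Cacna1e and 0.22 (SE 0.54) for Cacna1h. For the 6 higher expressed members no interval reached beyond -1.08 or 0.79. The lowest exact two-sided permutation p of a member was 0.143, where 4 against 4 animals can reach 0.029.

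**Figure D2:**
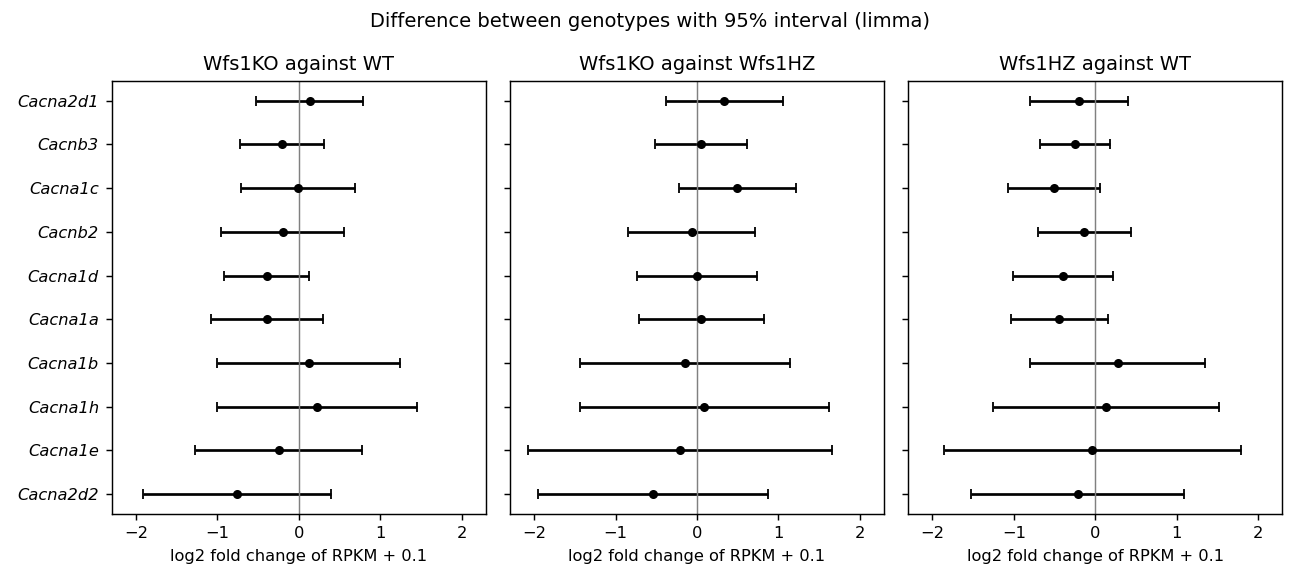
Log2 fold change of RPKM + 0.1 for each of the 10 subunit genes (rows, ordered by mean level) in the 3 comparisons of genotypes (panels), with limma's 95% interval as the bar and 4 animals in each genotype. Every interval includes 0, and the intervals widen from the highly to the weakly expressed genes, as from -0.72 to 0.31 for Cacnb3 and from -1.91 to 0.40 for Cacna2d2 in Wfs1KO against WT.

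The Cacna1d comparison moved with the scaling of the libraries. Scaling to the endocrine transcription factors brought the difference to -0.21 (unadjusted p = 0.382), whereas median-of-ratios and quantile scaling kept its size with a smaller error. After each library was divided by a median-of-ratios size factor, Cacna1d lay between 6.14 and 8.23 in Wfs1KO and between 8.71 and 10.1 in WT animals, with no overlap, and its SD within genotypes was 0.19 on the log2 scale, against 0.38 for the deposited values. The difference was then -0.43 (unadjusted p = 0.0223, limma adjusted p = 0.617). It was 1 of 10 members without overlap and 1 of 10 with an unadjusted p under 0.05 on that scale, where 3.78% of all transcripts tested had no overlap and 7.24% such a p. With quantile normalization its unadjusted p was 0.026 and that of Cacna2d2 was 0.0464 (-0.96), so that 2 of 10 members had an unadjusted p under 0.05 where 7.18% of all transcripts tested did. The WT and Wfs1HZ animals still overlapped.

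**Figure D3:**
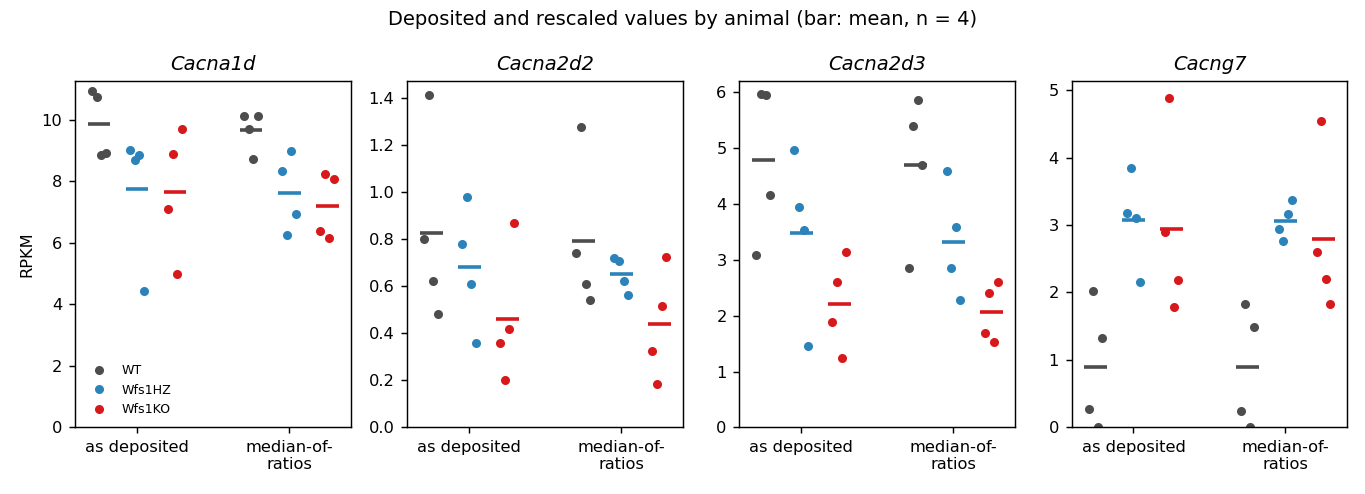
RPKM of Cacna1d, Cacna2d2, Cacna2d3 and Cacng7 by animal (points; bars are means of 4 animals), as deposited and after median-of-ratios scaling of the libraries, with the axes starting at 0. For Cacna1d the Wfs1KO animals (6.14 to 8.23) fall below the WT animals (8.71 to 10.1) after scaling but not before, and for Cacna2d3 likewise (1.53 to 2.60 against 2.86 to 5.85).

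Wfs1KO and Wfs1HZ islets differ by the remaining intact allele. Between them 5 members were higher and 5 lower by mean log2(RPKM + 0.1), with a median of 0.02 against 0.04 over all transcripts tested. After median-of-ratios scaling the split was 3 higher and 7 lower, and when 1 animal was left out it ran from 2 higher and 8 lower (without Wfs1HZ replicate 4 or Wfs1KO replicate 4) to 8 higher and 2 lower (without Wfs1HZ replicate 2 or Wfs1KO replicate 3). No member passed FDR < 0.05 or FDR < 0.2 (0.0% of all transcripts passed either), an unadjusted p under 0.05 (2.45% of all) or separation of the animals (1.43% of all). Cacna1c, at 14.8 ± 5.9 RPKM in Wfs1KO and 10.0 ± 2.2 in Wfs1HZ islets, had the lowest unadjusted p, with a difference of 0.49 (SE 0.32, interval -0.23 to 1.22, limma adjusted p = 1.0). Cacna1d differed by -0.00 (interval -0.74 to 0.73), Cacna1a by 0.05, Cacnb3 by 0.04 and Cacna2d1 by 0.34.

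Wfs1HZ islets were compared with WT islets to see whether the loss of 1 allele was enough. In Wfs1HZ islets 8 members had a lower and 2 a higher mean log2(RPKM + 0.1), with a median of -0.21 against 0.04 over all transcripts tested. Without Wfs1HZ replicate 4, 6 members were higher and 4 lower, with a median of 0.0053. After median-of-ratios scaling, which brought the median deviation of that library's members from -0.60 to -0.0035, 2 were higher and 8 lower, with a median of -0.17. The split was 6 lower and 4 higher when libraries were scaled to the endocrine transcription factors, a choice that moved the median of all transcripts from 0.04 to 0.24. None of the 10 passed FDR < 0.05 or FDR < 0.2 (0.0% of all transcripts), none had an unadjusted p under 0.05 (2.35% of all) and none separated the animals (1.66% of all). Cacna1c differed by -0.50 (SE 0.25, interval -1.07 to 0.06, unadjusted p = 0.0759, limma adjusted p = 1.0), Cacna1a by -0.44 (interval -1.04 to 0.15, exact two-sided permutation p = 0.0571) and Cacna1d by -0.39 (interval -1.01 to 0.22). Wfs1HZ replicate 4, the library with the largest share in its 10 highest entries, held the lowest value of all 3 genes in that genotype. These comparisons share the WT or the Wfs1HZ animals with the others.

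The trend over intact Wfs1 copies (0, 1 or 2) asked for a graded effect. No member had a slope past FDR < 0.05 (0.00461% of all transcripts), FDR < 0.2 (0.00922%) or an unadjusted p of 0.05 (3.08%). Of the slopes 7 were positive, with a median of 0.10 log2 units per copy against -0.04 over all transcripts tested, and 5 without Wfs1KO replicate 3, with a median of 0.0021. The slope of Cacna1d was 0.20 (SE 0.15, interval -0.11 to 0.51), that of Cacna1a 0.19 (SE 0.16, interval -0.14 to 0.53) and that of Cacna2d2 0.38 (SE 0.30, interval -0.25 to 1.01). Wfs1 itself had a slope of 1.38 (SE 0.18, limma adjusted p = 0.00825).

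The make-up of the pores was then set out as shares of the summed RPKM of the 6 pore-forming members, which do not depend on the scaling of a library. Cacna1c made up 41.8 ± 8.5% in WT, 38.1 ± 7.7% in Wfs1HZ and 46.7 ± 11.0% in Wfs1KO islets (SD, n = 4). Cacna1d made up 28.9 ± 2.5%, 28.3 ± 2.4% and 24.4 ± 2.5%, and Cacna1a 19.6 ± 5.1%, 18.1 ± 1.7% and 16.3 ± 2.8% in the same order. Together the 2 L-type genes held 63.9% to 77.6% in WT, 56.1% to 70.7% in Wfs1HZ and 57.8% to 78.7% in Wfs1KO animals, so the genotypes overlapped. The lowest L-type shares were those of Wfs1HZ replicate 2, where Cacna1e took 10.1%, and of Wfs1KO replicate 4, where Cacna1h took 11.4%. In the other 11 animals Cacna1e stayed between 0.719% and 3.65%.

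**Figure D4:**
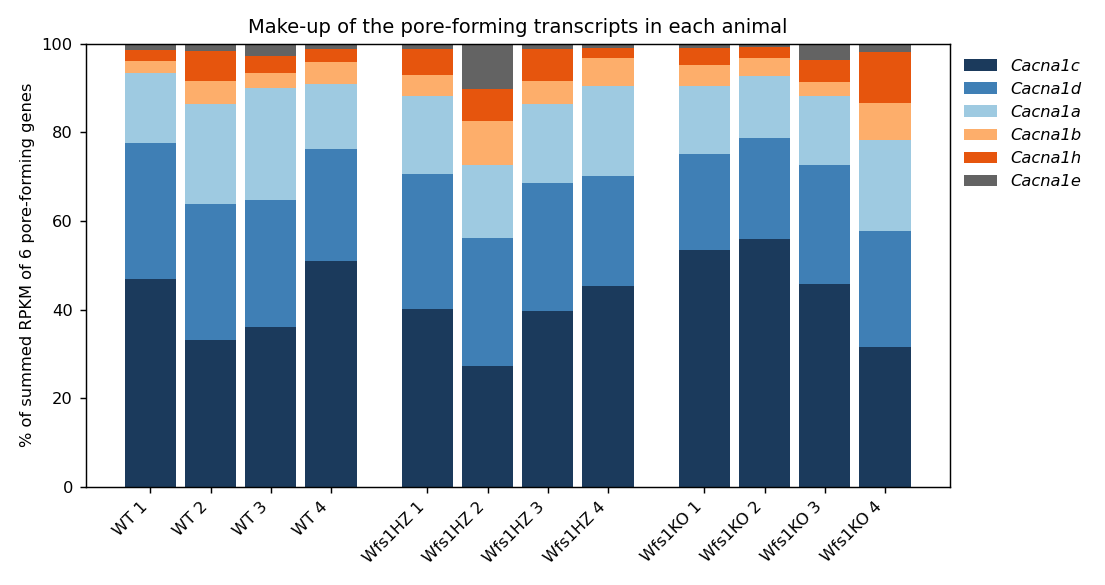
Share of the summed RPKM of the 6 pore-forming genes taken by each gene (stacked, in percent of RPKM) in each of the 12 animals. Cacna1c and Cacna1d together take 56.1% to 78.7% in every animal, and Wfs1HZ 2 and Wfs1KO 4 stand out by their shares of Cacna1e (10.1%) and Cacna1h (11.4%).

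Ratios of members within an animal asked which of 2 related subunits had the higher RPKM. Over the 12 animals Cacna1c exceeded Cacna1d by a geometric mean of 1.52 times, in 11 of 12 animals, with ratios from 0.942 in Wfs1HZ replicate 2 to 2.44 in Wfs1KO replicate 2 (exact two-sided sign-flip permutation p = 0.000977). Cacna1a was at 0.66 of Cacna1d, lower in 12 of 12 animals, and Cacna1b at 0.293 of Cacna1a, lower in 12 of 12. Cacna1h was at 0.178 and Cacna1e at 0.0745 of Cacna1d. Cacnb2 was at 0.657 of Cacnb3, lower in 11 of 12 animals with the exception of Wfs1KO replicate 4 (1.01), and Cacna2d2 at 0.0384 of Cacna2d1. All 7 planned ratios differed from 1 (highest adjusted permutation p = 0.000977 over the 7 pairs). This p measures how steady a ratio was over the animals. It does not cover an error in the transcript lengths behind the RPKM, which would be the same in every animal. Between genotypes 0 of 21 tests of these ratios passed, with a lowest adjusted permutation p of 0.75. In Wfs1KO against WT islets the log2 ratio of Cacna1c over Cacna1d was 0.90 ± 0.49 against 0.51 ± 0.38 (exact permutation p = 0.286, n = 4), and that of Cacnb2 over Cacnb3 was -0.64 ± 0.44 against -0.64 ± 0.17. The sum of the 2 beta members was 0.841 ± 0.131 of the sum of the 6 pores in WT, 0.948 ± 0.147 in Wfs1HZ and 0.818 ± 0.097 in Wfs1KO islets, and that of the 2 alpha2delta members 0.567 ± 0.117, 0.628 ± 0.064 and 0.672 ± 0.046.

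The remaining 16 subunit genes of the family were mostly weak. The 6 pore-forming members held 96.0 ± 2.3%, 93.9 ± 2.2% and 95.7 ± 2.0% of the RPKM of all 10 pore-forming genes in WT, Wfs1HZ and Wfs1KO islets. Of the others, Cacna1i and Cacna1g, both T-type, averaged 0.683 and 0.542 RPKM, and Cacna1f and Cacna1s, the L-type genes of retina and skeletal muscle, 0.216 and 0.149. Cacnb2 and Cacnb3 held 94.0 ± 2.1%, 92.2 ± 5.1% and 90.8 ± 2.6% of the 4 beta genes, with Cacnb1 at 1.62 and Cacnb4 at 0.578 RPKM. Cacna2d3 averaged 3.49 RPKM and Cacna2d4 0.920. Among the gamma genes, several of which encode partners of glutamate receptors rather than of calcium channels, Cacng7 averaged 2.31, Cacng4 0.902, Cacng2 0.870 and Cacng3 0.735 RPKM, while Cacng5, Cacng1 and Cacng8 were below 0.2 and Cacng6 was listed at 0 in all 12 animals.

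**Figure D5:**
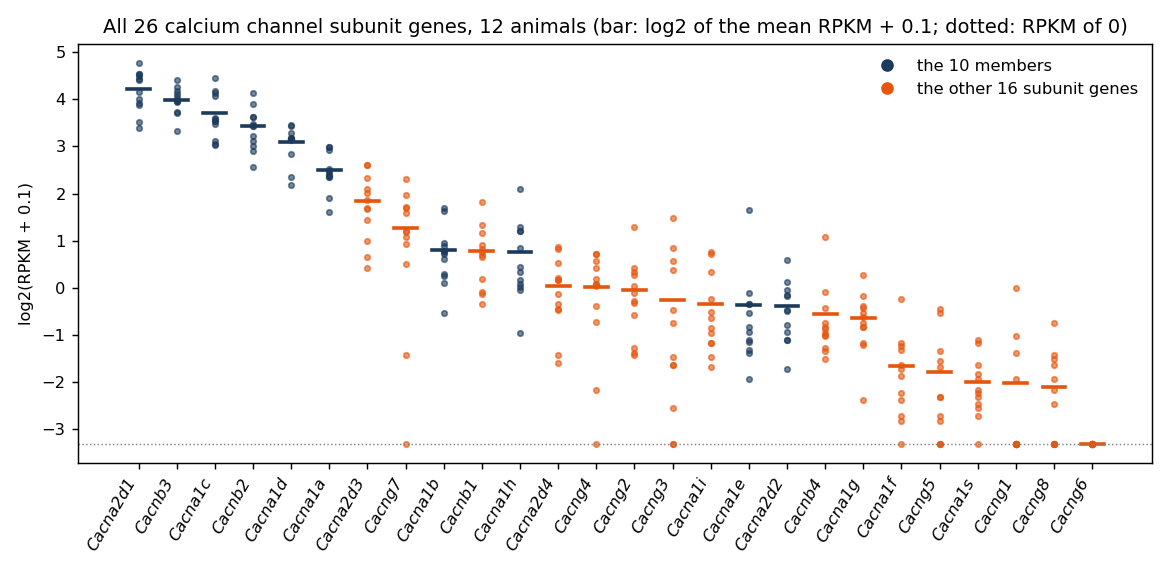
Level of all 26 calcium channel subunit genes as log2(RPKM + 0.1) in each of the 12 animals, with the 10 members and the other 16 in different colors, a bar for the log2 of the mean RPKM + 0.1 and a dotted line for an RPKM of 0. The 6 genes with the highest means are members, and Cacna2d3 (3.49 RPKM) and Cacng7 (2.31 RPKM) come next.

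Of these 16 genes 15 passed the filter on low values. In Wfs1KO against WT islets 1 was higher and 1 lower at an unadjusted p under 0.05, where 5.64% of all transcripts tested had such a p. None passed FDR < 0.2 (0.0461% of all), and the median was 0.12. Cacna2d3, another alpha2delta gene, was the lower one. It was at 3.09, 5.96, 5.95 and 4.15 RPKM in WT, 4.96, 3.95, 3.53 and 1.46 in Wfs1HZ and 1.89, 2.60, 1.24 and 3.13 in Wfs1KO animals. Of the Wfs1KO animals 3 lay below every WT animal, and replicate 4 lay just above the lowest WT animal. The difference was -1.10 (SE 0.36, interval -1.91 to -0.30, unadjusted p = 0.0125, limma adjusted p = 0.835, exact permutation p = 0.0571). Cacna2d1 made up 73.8 ± 7.7% of the RPKM of the 4 alpha2delta genes in WT, 76.6 ± 4.2% in Wfs1HZ and 85.5 ± 4.0% in Wfs1KO islets, and Cacna2d3 19.5 ± 6.4%, 15.7 ± 4.2% and 9.03 ± 1.65%. The Cacna2d3 share was 7.27% to 11.2% in Wfs1KO and 11.1% to 26.8% in WT animals, which overlap at WT replicate 1.

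Cacng7 was the higher one. It was at 0.27, 2.02, 0 and 1.32 RPKM in WT, 3.18, 3.84, 3.11 and 2.16 in Wfs1HZ and 2.89, 4.89, 1.79 and 2.19 in Wfs1KO animals. All 4 Wfs1HZ animals lay above the WT animals, whereas Wfs1KO replicate 3 lay below WT replicate 2. Its log2 difference from WT was 2.29 in Wfs1KO (SE 0.90, unadjusted p = 0.031, limma adjusted p = 0.843) and 2.43 in Wfs1HZ islets (SE 0.90, unadjusted p = 0.0226, limma adjusted p = 1.0), values that depend on the pseudocount since WT replicate 3 was listed at 0. Cacng3 also separated Wfs1HZ (0.26 to 2.67 RPKM) from WT (0 to 0.22 RPKM) animals, on an estimated 3.62 to 16.2 against 0 to 5.45 reads. Cacng7 and Cacng3 were thus 2 of 15 genes without overlap in Wfs1HZ against WT, where 1.66% of all transcripts tested had none.

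Genes that act on or beside the channels were read in the same fit. Of 26 channel partners (among them calcium-dependent kinases, calcineurin subunits, small G proteins that restrain the channel, anchors and exocytosis proteins), 1 was lower at an unadjusted p under 0.05 in Wfs1KO against WT islets and none passed FDR < 0.2, with a median of 0.02. The animals of 2 of the 26 did not overlap, and over all transcripts tested 5.64% had such a p and 2.74% no overlap. Stx1a, the syntaxin that binds the channels and forms part of the release machinery, was at 1.17 to 2.56 RPKM in Wfs1KO and 2.80 to 4.19 in WT animals, without overlap (-0.85, SE 0.31, limma adjusted p = 0.835). Snap25, its SNARE partner, was also without overlap, at 84.2 to 144.7 RPKM against 147.3 to 166.1 (-0.39, SE 0.21, unadjusted p = 0.0945). None of 14 sodium channel subunit genes reached an unadjusted p under 0.05, and the highest, Scn9a, averaged 4.99 RPKM.

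Upstream of calcium entry, all 7 listed genes were lower in Wfs1KO than in WT islets, 3 of them at an unadjusted p under 0.05 and 1 at FDR < 0.2, with a median of -0.66, where 5.64% and 0.0461% of all transcripts tested passed these thresholds in either direction. Trpm5, a calcium-activated cation channel that helps to depolarize the beta cell, was at 0.55 to 0.83 RPKM in Wfs1KO and 2.57 to 5.85 in WT animals (-2.36, SE 0.34, limma adjusted p = 0.188). It was the gene at FDR < 0.2. The study had already called Trpm5 lower in these libraries (edgeR exact test, FDR < 0.05) and found it lower by RT-PCR. The list was set with that known, so the counts that include Trpm5 are not an independent result. Kcnj11, the pore of the ATP-sensitive potassium channel, was at 9.75 to 17.5 RPKM against 15.9 to 26.6 (-0.66, SE 0.24, limma adjusted p = 0.835), and Slc2a2, the glucose transporter, at 2.50 to 4.34 against 3.37 to 11.7 (-1.03, SE 0.38, limma adjusted p = 0.835). Abcc8, the sulfonylurea receptor and the most abundant of the list, averaged 40.6 ± 11.9 RPKM in Wfs1KO and 58.1 ± 11.7 in WT islets. The summed RPKM of the 10 beta cell markers was 22394 to 91427 in Wfs1KO and 32086 to 179874 in WT animals, and of the 9 tested 7 were lower (median -0.75). Markers of some other cells were higher in the same comparison, 6 of 6 for fibroblasts (median 1.34, 2 at an unadjusted p under 0.05). So were 5 of 5 for smooth muscle (median 0.91) and 6 of 6 for endothelium (median 0.51, 1 at an unadjusted p under 0.05). For immune cells and for neurons and glia 5 of 6 were higher, and for PP cells 2 of 2. Alpha cell markers (5 of 5, median -0.25), acinar markers (9 of 11, median -0.23) and 2 of 3 delta cell markers were lower. Of the ductal markers 3 were higher and 3 lower. The part of these cells in the upstream values was not tested.

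For the 3 most abundant members, the transcripts most like them over the 12 animals were listed by Pearson correlation of log2(RPKM + 0.1) among 13355 candidates, as a description, since all points share their library and its scaling. Nearest to Cacna2d1 were Pcdhga3 (r = 0.949), Nup210 (0.949), Pcdhga12 (0.933), Pcdhgb2 (0.932) and Atp6v1d (0.930), of which the protocadherin genes share their constant exons. Cacnb3 was most like Lrch2 (r = 0.926), Tmem150c (0.908), Flrt1 (0.908), Sphkap (0.884) and Ctnnd2 (0.884). Those nearest to Cacna1c were Sec31a (r = 0.958), Heatr5a (0.938), Tbc1d9b (0.935), Mrps2 (0.928) and Creg1 (0.927). After median-of-ratios scaling, r ranged from 0.644 for Lrch2 to 0.944 for Heatr5a over these 15 transcripts.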

How the data were processed

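Islet RNA of 12 mice (10 ng each) was amplified and sequenced on the SOLiD 5500xl with paired ends of 75 and 35 bp. The authors mapped reads to mm10 with LifeScope and deposited RPKM, 1 column per animal; the annotation and the counter are not given in the sources used here. RPKM divides by all reads, so a few very abundant transcripts can lower the rest. Reads behind a value were estimated from RPKM steps of short RNA genes (94.2% to 100% of values lay within 0.1 of a whole read). The lowest depth that fitted nearly best was taken, and multiples of it were not tested.

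Genotypes came from the labels. The study tested counts pair by pair; here limma 3.58.1 (R 4.3.3) with a variance trend was fitted pair by pair to log2(RPKM + 0.1) over the 21701 transcripts whose mean reached 0.1 RPKM, with Benjamini-Hochberg adjustment (FDR). A fold change on this scale understates changes of low genes. Exact permutation tests enumerated every arrangement with code written for the purpose, which was checked against scipy 1.17.1. The script was tested on simulated data. The 3 comparisons share samples.

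The members and lists were chosen with earlier results of these data known. Named were all members, the other subunit genes, listed partner, sodium channel and upstream genes with an unadjusted p under 0.05 or no overlap in Wfs1KO against WT and the highest of each list (that of the partner list is not reported here), the targeted gene, and for the 3 highest members the 5 most like them among transcripts whose mean reached 1 RPKM. Alternatives were pseudocounts of 1 and 0.01, no filter and a minimum of 1 RPKM, median-of-ratios, quantile and endocrine transcription factor scaling, no variance trend, all 12 samples in 1 fit, sample weights, a replicate block and leaving out each animal.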

Additional observations from a re-analysis of the deposited data

Results flagged for a closer look

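In 8 of 74 sets of 4 animals (1 subunit gene in 1 genotype) a single animal lay far from the other 3 by Dixon's test, which flags about 1 in 20 sets by chance. Of these, 3 concerned members. Cacna1d in Wfs1HZ replicate 4 was at 4.44 RPKM, against 8.68 to 9.01 in the other 3. Cacna1e in Wfs1HZ replicate 2 was at 3.03 RPKM, against 0.16 to 0.36, and Cacna1h in Wfs1KO replicate 4 at 4.19 RPKM, against 0.91 to 1.25. Of the other subunit genes, Cacna1i in WT replicate 2 was at 1.54 RPKM (0.34 to 0.45 in the other 3) and Cacnb1 in Wfs1KO replicate 4 at 3.45 RPKM (1.48 to 1.78). Cacng3 in Wfs1HZ replicate 2 was at 2.67 RPKM (0.26 to 0.62). Cacng5 stood out at 0.29 RPKM in WT replicate 2 (0 to 0.04) and at 0.59 RPKM in Wfs1HZ replicate 2 (0 to 0.10). Of the 8 values 3 came from Wfs1HZ replicate 2, the library with the lowest estimated read number but the most entries above 0.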

How the results depend on the processing

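No alternative brought a member past FDR < 0.05 in any comparison; the lowest adjusted p of a member was 0.50 (limma), and a minimum of 1 RPKM left out Cacna1e and Cacna2d2. Members with an unadjusted p under 0.05 in Wfs1KO against WT numbered 1 with median-of-ratios scaling (Cacna1d), 2 with quantile normalization (Cacna1d and Cacna2d2) and 1 with sample weights (Cacna2d2), where 7.24%, 7.18% and 9.52% of all transcripts had such a p, and in the trend 1 in each of these (4.85%, 4.92% and 9.21% of all). Wfs1KO against Wfs1HZ gave 0 to 1 when an animal was left out, the 1 being Cacna1c without Wfs1KO replicate 3 (0.73). All 7 ratios within islets passed and 0 of 21 between genotypes did under every alternative run. Scaling to endocrine transcription factors moved the median of all transcripts in Wfs1KO against WT from 0.07 to 0.26. Signs turned in these cases, none of them past FDR < 0.05: in Wfs1KO against WT, Cacna1c to 0.18 with endocrine scaling and 0.23 with weights, Cacna1h to -0.043 with weights; against Wfs1HZ, Cacna1a to -0.022 with median-of-ratios and -0.057 with weights, Cacna1b to 0.0044 with quantile, Cacna1h to -0.52 with weights, Cacnb3 to -0.033 with median-of-ratios and -0.038 with quantile, Cacng7 to 0.049 with weights; in Wfs1HZ against WT, Cacna1e to 0.13 with a pseudocount of 1 and 0.16 with endocrine scaling, Cacna1h to -0.18 with quantile, Cacnb2 to 0.065 with endocrine scaling; in the trend, Cacna1c to -0.088 with endocrine scaling and -0.10 with weights, Cacna1h to 0.030 with weights. The cause was not tested. With each animal left out, Wfs1KO against WT ranged from -0.22 to 0.52 for Cacna1b, -0.22 to 0.22 for Cacna1c, -0.26 to 0.51 for Cacna1h, -0.013 to 0.40 for Cacna2d1 and -0.48 to 0.041 for Cacnb2. Against Wfs1HZ the ranges were -0.14 to 0.30 for Cacna1a, -0.49 to 0.25 for Cacna1b, -0.25 to 0.18 for Cacna1d, -0.65 to 0.55 for Cacna1e, -0.42 to 0.31 for Cacna1h, -0.35 to 0.17 for Cacnb2, -0.073 to 0.24 for Cacnb3 and -0.41 to 0.060 for Cacng7. Wfs1HZ against WT ranged from -0.80 to 0.40 for Cacna1e, -0.080 to 0.64 for Cacna1h, -0.34 to 4.98e-06 for Cacna2d1, -0.41 to 0.049 for Cacna2d2 and -0.26 to 0.011 for Cacnb2, and the trend from -0.26 to 0.090 for Cacna1b, -0.080 to 0.13 for Cacna1c, -0.25 to 0.12 for Cacna1h, -0.18 to 0.017 for Cacna2d1 and -0.012 to 0.24 for Cacnb2. Deviations of same-numbered animals correlated at -0.17 to 0.23. Set against WT animals, 3 of the Wfs1HZ and 1 of the Wfs1KO animals correlated best with the one of their own number. Set against Wfs1HZ animals, 0 of the Wfs1KO animals did. With so few animals these values cannot tell whether the numbers pair them. A replicate block gave 0 members past FDR < 0.05 and 0 at an unadjusted p under 0.05 in each comparison.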
